A study of Danio rerio with 12 samples.

Results

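Collagens are the main structural proteins of the extracellular matrix. Their chains wind around each other into stiff helices, which then assemble into fibrils (types I, II, V, XI, XXIV and XXVII), into the sheets of basement membranes (type IV), into short-chain networks (VIII and X) or into filaments and anchors that tie cells to the matrix. In the zebrafish embryo, notochord sheath, fin folds, epidermis, myosepta and cartilage make large amounts of them. Methylmercury (MeHg) is an organic mercury compound that harms embryonic development and the nervous system.

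The collagen genes described here are the 51 rows of the gene table, of 32057 in all, whose symbol begins with col, a number, a and a number. From 54 such rows, col2a1a, col9a1a and col10a1a were left out. The 51 rows carry 49 symbols of 21 collagen types, because col6a3 and col19a1 each have a long and a short row. Of these, 48 reached a mean level of 0.5 FPKM over the 12 libraries (fragments counted, scaled by exonic size and library total) and were tested. The others, col5a3a, col10a1b and col28a1b, are given by level only.

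Wild-type whole embryos were kept in 6, 30 or 50 µg/L MeHg from 4 to 72 h post-fertilisation, and the control embryos were untreated (0 µg/L) over the same hours. Poly(A) RNA was sequenced from 3 samples per group, with 15665053 to 22207603 counts per library. Whether the samples of a group were separate clutches or tanks is not in the labels, so p-values reflect only how much these samples differ, which may be technical. The study sought genes that report MeHg toxicity, so each dose was set against the control, and 50 µg/L against 6 µg/L.

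Levels below are FPKM on library sizes scaled by TMM (the trimmed mean of M-values), always for replicates 1, 2 and 3 of a group in that order. Changes are log2 fold changes ± SE from edgeR's quasi-likelihood test on all 19821 genes tested, and a gene rose or fell where the Benjamini-Hochberg adjusted p was under 0.05. In whole-embryo RNA, fewer cells of a type and less RNA per cell cannot be told apart.

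Collagen transcripts are long, and the control libraries differed from the others, and from each other, by gene length. The tested collagen genes had a median exonic size of 5654 bases, against 2307 bases for all tested genes, and 27 of the 48 lay in the longest eighth of genes. On the log2 scale, the median deviation of the longest eighth less that of the shortest ran from -0.09 to 0.19 in the 9 exposed libraries. It was -0.69 in control replicate 1, -0.53 in control replicate 2 and 0.19 in control replicate 3. The median deviation of the 48 collagen genes followed, at -0.36, -0.29 and 0.06 in the controls, beside -0.43, -0.34 and 0.14 for genes of the same length eighths (each collagen gene given the median of all tested genes in its eighth, and the median taken over the 48).

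**Figure D1:**
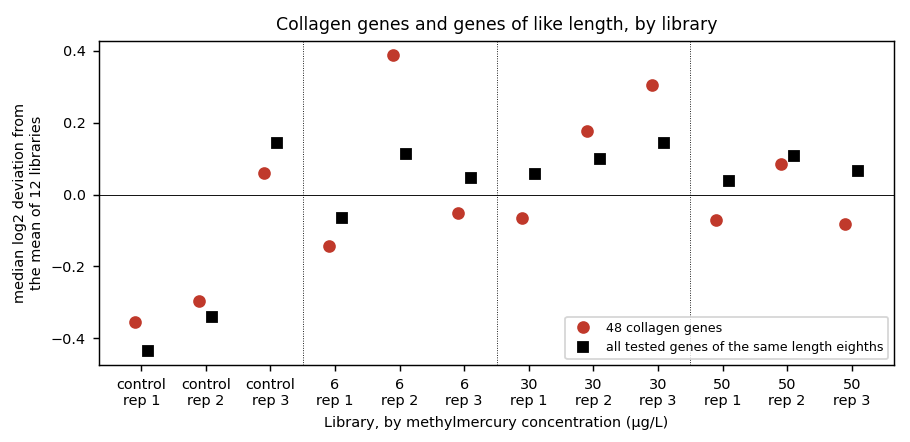
For each of the 12 libraries, the circle gives the median log2 deviation of the 48 tested collagen genes from the mean of all libraries, and the square the median, over the same 48 genes, of the median deviation of all tested genes in each one's eighth of gene length. The collagen genes lie highest in 6 µg/L replicate 2, at 0.39, above the 0.11 of genes of like length, and lowest in control replicates 1 and 2, at -0.36 and -0.29.

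Against that background, most collagen genes did not pass the test at any dose. At 6 µg/L, 5 of the 48 rose and 1 fell, where 5.48% of all tested genes rose and 8.88% fell. At 30 µg/L, 10 rose and 1 fell, against 13.4% and 17.3% of all tested genes. At 50 µg/L, 10 rose and 4 fell, against 17.6% and 21.9%. The rises make 10.4%, 20.8% and 20.8% of the tested collagen genes at 6, 30 and 50 µg/L, above the share in all genes, and the falls make 2.08%, 2.08% and 8.33%, below it. Whether these shares differ was not tested.

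The median log2 fold change of the collagen genes was 0.26, 0.32 and 0.13 at 6, 30 and 50 µg/L. Against control replicate 3 alone it was -0.02, 0.12 and -0.11, so its sign turns at 6 and 50 µg/L, and without that library it was 0.42, 0.47 and 0.26. Without control replicate 1 it was 0.04 at 50 µg/L. Tested genes of all lengths had medians of -0.00, -0.04 and -0.04, and genes of the same length eighths had 0.19, 0.24 and 0.20. After a gene-length offset, which removes from each library its smooth trend of level against gene size, the collagen medians were 0.07, 0.07 and -0.03. With the offset 4 were higher and 3 lower at 6 µg/L, where 5.83% and 9.88% of all tested genes were. At 30 µg/L 8 were higher and 5 lower, against 13.9% and 17.7%, and at 50 µg/L 6 were higher and 10 lower, against 18.8% and 21.9%. Counted by groups that did not overlap, 9 collagen genes stood higher and 3 lower at 6 µg/L, against 12.1% and 13.8% of all tested genes. At 30 µg/L 11 were higher and 2 lower, against 17.4% and 20.1%, and at 50 µg/L 11 were higher and 6 lower, against 21.1% and 23%. Control replicate 3 also decides the plain counts. Without it, 25, 31 and 21 collagen genes rose at 6, 30 and 50 µg/L. The controls then left are replicates 1 and 2, in which long genes in general were low. The share of all tested genes that rose in that fit is not given here, so these counts cannot be read as particular to collagen genes.

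**Figure D2:**
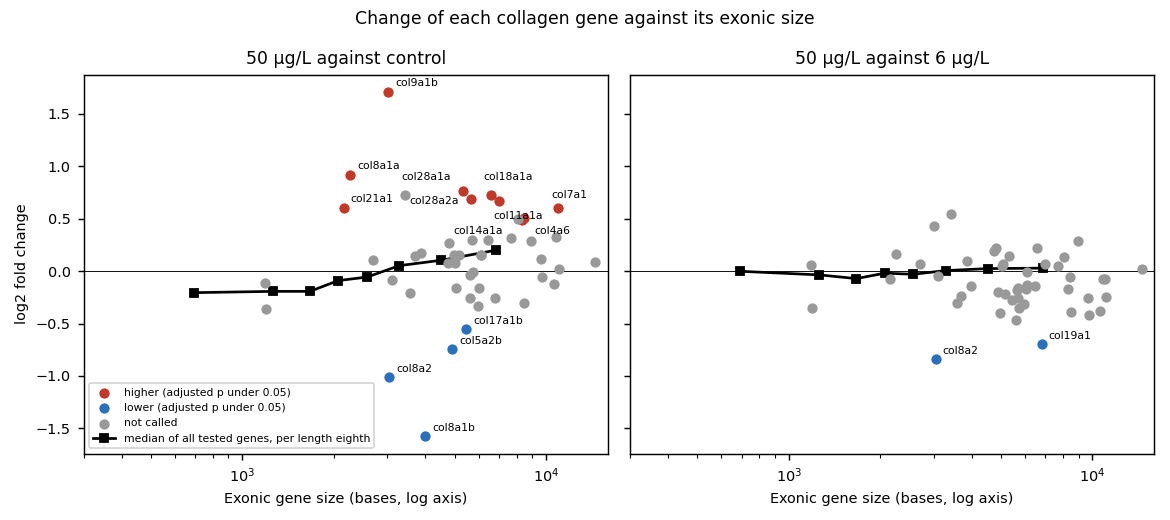
Each point is a collagen gene, placed by exonic size on a log axis and by its log2 fold change at 50 µg/L against control (left) and at 50 against 6 µg/L (right); red and blue mark genes that rose or fell at an adjusted p under 0.05, and the black squares are the medians of all tested genes per length eighth. The squares climb with size on the left, up to 0.20 in the longest eighth, and stay near 0 on the right.

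Fibril-forming collagens make the tension-bearing fibres of skin, bone, tendon and cartilage. Of 13 tested genes, 1 rose at 30 µg/L, 1 rose and 1 fell at 50 µg/L, and 0 passed at 6 µg/L. Of all tested genes, 5.48%, 13.4% and 17.6% rose and 8.88%, 17.3% and 21.9% fell at 6, 30 and 50 µg/L. Type I, the main collagen of bone, skin and tendon and the seat of brittle-bone mutations in people and in fish, was the most abundant and made 28.4% to 41.2% of all collagen FPKM in a library. The chain gene col1a1a (chromosome 3, 23221047 to 23239458, GRCz11) stood at 291, 256 and 279 FPKM in controls, 217, 406 and 209 at 6 µg/L, 270, 301 and 410 at 30 µg/L and, at 50 µg/L, 225, 249 and 267. Each dose overlapped the controls, with single high libraries at 6 and 30 µg/L. Its log2 fold changes were 0.01 ± 0.23, 0.25 ± 0.23 and -0.16 ± 0.23 at 6, 30 and 50 µg/L (edgeR adjusted p = 0.98, 0.44 and 0.62). Its paralogue col1a1b and the partner chain col1a2 showed the same high libraries. At 30 µg/L, col1a1b reached 105, 137 and 181 FPKM, against 93.4, 96.2 and 98.5 in controls, and col1a2 reached 92.7, 119 and 157 FPKM, against 83.2, 87.9 and 82.4. Neither passed the test (edgeR adjusted p = 0.093 and 0.085).

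Type XI, which sets the width of cartilage fibrils, held the fibril gene that rose. The level of col11a1a (chromosome 24, 28764021 to 28893303) was 37.1, 39.1 and 60.1 FPKM in controls, 49.8, 90.4 and 66.9 at 6 µg/L, 60.1, 77.0 and 101 at 30 µg/L and, at 50 µg/L, 68.5, 76.7 and 71.7. At 50 µg/L every library exceeded every control. The change was 0.80 ± 0.24 at 30 µg/L (edgeR adjusted p = 0.026) and 0.67 ± 0.24 at 50 µg/L (adjusted p = 0.043). With the gene-length offset it was 0.54 (adjusted p = 0.031) and 0.45, the latter not called (adjusted p = 0.054). With the compared groups alone neither dose is called (adjusted p = 0.077 and 0.052). Against control replicate 3 alone it was 0.42 at 30 µg/L (adjusted p = 0.23) and 0.27 at 50 µg/L (adjusted p = 0.41), and with a library left out the calls held in 2 of 6 fits at 30 µg/L and in 1 of 6 at 50 µg/L. The partner chain col11a2 stood at 21.1, 22.7 and 20.4 FPKM at 50 µg/L, against 8.63, 11.8 and 24.9 in controls, and its paralogue col11a1b at 12, 13.8 and 11.9, against 13, 15.5 and 18.2. Neither passed the test (edgeR adjusted p = 0.24 for both). With the gene-length offset, col11a1b is called lower at 50 µg/L, at -0.61 (edgeR adjusted p = 0.0074).

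Type V starts the assembly of type I fibrils, and its loss causes fragile, stretchy skin in people. Only the low-level chain gene col5a2b (chromosome 6, 11438972 to 11495601) passed among the tested type V genes, at 50 µg/L alone. It stood at 0.560, 1.02 and 0.981 FPKM there, against 1.69, 1.24 and 1.38 in controls, a change of -0.75 ± 0.27 (edgeR adjusted p = 0.046). That call is lost with median-of-ratios scaling, with library totals, or with the compared groups alone (adjusted p = 0.080), and it held in 1 of 6 fits that each left out a library. The major chains did not pass at any dose: col5a1 had log2 fold changes of 0.38, 0.51 and 0.12 at 6, 30 and 50 µg/L, and col5a2a had -0.23, 0.10 and -0.16. With the gene-length offset, col5a2a is called lower at 6 and 50 µg/L, at -0.38 and -0.34 (edgeR adjusted p = 0.041 and 0.032). The offset also calls col5a2b lower at 30 µg/L, at -0.82 (adjusted p = 0.033). The cartilage gene col2a1b had 0.37, 0.49 and 0.15, the notochord and spine gene col27a1b 0.55, -0.22 and 0.15, and the minor fibril gene col24a1 -0.17, -0.08 and -0.12. The gene col5a3a, under the level filter, averaged 0.379 FPKM in controls and 0.476, 0.545 and 0.519 FPKM at 6, 30 and 50 µg/L.

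Type IV chains form the sheet of every basement membrane, and in vertebrates their genes sit in pairs that share a start region. Of 6 tested, 0 passed at 6 µg/L, 2 rose at 30 µg/L and 1 rose at 50 µg/L, where 5.48%, 13.4% and 17.6% of all tested genes rose. The ubiquitous pair, col4a1 and col4a2, had log2 fold changes from 0.03 to 0.23 over the 3 doses. At 50 µg/L, col4a1 stood at 5.96, 7.01 and 4.99 FPKM, against 4.58, 4.27 and 7.27 in controls, with overlap.

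The genes col4a5, whose human counterpart is mutated in Alport kidney disease, and col4a6 lie head to head on chromosome 7 with 752 bases between them (51103232 to 51194430 and 50920437 to 51102479). The level of col4a6 was 15.8, 15.8 and 21.1 FPKM in controls, 21.1, 31.5 and 24.9 at 6 µg/L, 24.1, 29.8 and 34.0 at 30 µg/L and, at 50 µg/L, 22.5, 27.4 and 24.8. It rose by 0.74 ± 0.17 at 30 µg/L (edgeR adjusted p = 0.0078) and by 0.50 ± 0.17 at 50 µg/L (adjusted p = 0.036). Against control replicate 3 alone neither is called (0.49 and 0.25). With the gene-length offset and that library as the only control the changes were 0.55 and 0.36, and the offset without that library gave 0.32 and 0.13. The call at 50 µg/L is lost under the plain offset (0.21, adjusted p = 0.21) and in 4 of 6 fits with a library left out. Its neighbour col4a5 stood at 52.1, 63.4 and 57.6 FPKM at 50 µg/L, against 42.1, 42.3 and 56.8 in controls. It did not pass at any dose, with log2 fold changes of 0.44, 0.47 and 0.29.

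In the second head-to-head pair, col4a3 and col4a4, 1 gene passed the test, at 30 µg/L. The gene col4a4 (chromosome 15, 35951888 to 36055401) stood at 0.650, 0.392 and 0.738 FPKM in controls, 0.551, 0.871 and 0.707 at 6 µg/L, 1.17, 1.22 and 1.18 at 30 µg/L and, at 50 µg/L, 0.563, 0.535 and 0.540. The 3 libraries at 30 µg/L lay above all 9 others. The change at 30 µg/L was 1.00 ± 0.21 (edgeR adjusted p = 0.0046), and it was 0.61 with the gene-length offset (adjusted p = 0.025) and 0.70 against control replicate 3 alone (adjusted p = 0.012). At 6 and 50 µg/L it was 0.26 and -0.12, not past the threshold, and 30 µg/L was not tested against those doses. The partner col4a3 stood at 0.924, 1.10 and 1.02 FPKM at 30 µg/L, against 0.848, 0.652 and 0.960 in controls (0.30 ± 0.17, edgeR adjusted p = 0.18). The starts of both genes share 538 bases on opposite strands, and whether the counting used strand is not given in the sources used here.

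The short-chain collagens held the gene that fell at every dose, and their calls ran in opposite directions. Type VIII forms lattices in the notochord sheath and in the membranes of cornea and vessels; zebrafish lacking a working col8a1a develop a bent notochord. Of its 3 tested genes, col8a1b fell at every dose, col8a2 fell at 50 µg/L and col8a1a rose at 50 µg/L. Among all tested genes, 5.48%, 13.4% and 17.6% rose and 8.88%, 17.3% and 21.9% fell at 6, 30 and 50 µg/L.

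The low-level gene col8a1b (chromosome 22, 28647130 to 28668442) stood at 1.56, 1.14 and 1.36 FPKM in controls, 0.403, 0.543 and 0.549 at 6 µg/L, 0.375, 0.417 and 0.298 at 30 µg/L and, at 50 µg/L, 0.549, 0.449 and 0.358. All 9 exposed libraries lay below all 3 controls. Raw counts were 26 to 48 in the exposed libraries and 92, 90 and 122 in controls. The changes were -1.43 ± 0.22 at 6 µg/L, -1.89 ± 0.23 at 30 µg/L and -1.58 ± 0.22 at 50 µg/L (edgeR adjusted p = 0.0014, 9.8e-05 and 0.00019). The 3 doses share their control libraries. For this gene the controls did not split: against control replicate 3 alone the changes were -1.43, -1.89 and -1.58, and with the gene-length offset -1.55, -2.03 and -1.71.

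The gene col8a2 (chromosome 19, 35496282 to 35596207) stood at 10.2, 13.5 and 23.2 FPKM in controls, 12.7, 14.7 and 14.3 at 6 µg/L, 9.86, 12.9 and 11.3 at 30 µg/L and, at 50 µg/L, 7.33, 8.34 and 7.65. The libraries at 50 µg/L were the lowest of the 12 and overlapped no other group. The change at 50 µg/L was -1.01 ± 0.23 against control (edgeR adjusted p = 0.0048) and -0.84 ± 0.23 against 6 µg/L (adjusted p = 0.020). Its size against control depends on control replicate 3, being -0.62 without that library and -1.57 with it as the only control, past the threshold both times.

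The partner gene col8a1a (chromosome 9, 30090656 to 30102778) stood at 5.04, 9.80 and 19.7 FPKM in controls, 16.6, 21.7 and 20.3 at 6 µg/L, 19.3, 22.4 and 22.9 at 30 µg/L and, at 50 µg/L, 24.2, 20.9 and 20.7. The exposed libraries, from 16.6 to 24.2 FPKM, lay around or above control replicate 3, and the other controls lay well below. The change at 50 µg/L was 0.92 ± 0.33 (edgeR adjusted p = 0.045), but 0.16 against control replicate 3 alone (adjusted p = 0.40) and 1.53 without it, and the call held in 1 of 6 fits with a library left out. The type X gene col10a1b, of the hypertrophic cartilage type, was under the level filter, averaging 0.261 FPKM in controls and 0.0522, 0.159 and 0.103 FPKM at 6, 30 and 50 µg/L.

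Fibril-associated collagens sit on the surface of fibrils and link them to other matrix. Of 11 tested, 2 rose at 6 µg/L, 3 at 30 µg/L and 3 at 50 µg/L, and 0 fell at any of these doses. Of all tested genes 5.48%, 13.4% and 17.6% rose and 8.88%, 17.3% and 21.9% fell. With the gene-length offset 2 of the 11 were higher at each dose, against 5.83%, 13.9% and 18.8% of all tested genes. At 50 µg/L 1 was then lower, against 21.9%. The largest log2 fold change of any collagen gene that rose was that of col9a1b (chromosome 13, 39119460 to 39160018), a chain of the type IX molecule that coats cartilage fibrils. It stood at 13.6, 28.2 and 79.4 FPKM in controls, 76.9, 116 and 103 at 6 µg/L, 110, 92.7 and 142 at 30 µg/L and, at 50 µg/L, 152, 124 and 121. Control replicates 1 and 2 were far below the other 10 libraries, and control replicate 3 was within the range at 6 µg/L. The change was 1.51 ± 0.46 at 30 µg/L and 1.71 ± 0.46 at 50 µg/L (edgeR adjusted p = 0.026 and 0.011). Against control replicate 3 alone it was 0.55 at 30 µg/L (adjusted p = 0.059) and 0.75 at 50 µg/L (adjusted p = 0.012), and without that library it was 2.44 and 2.65. With the compared groups alone neither dose is called (adjusted p = 0.11 and 0.06), and with a library left out the call held in 3 of 6 fits at 30 µg/L and in 6 of 6 at 50 µg/L. The other chains of the same molecule did not pass: col9a2 had a log2 fold change of 0.17 ± 0.22 at 50 µg/L and col9a3 of -0.08 ± 0.16 (edgeR adjusted p = 0.56 and 0.71).

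The small gene col21a1 (chromosome 13, 1799003 to 1866711), whose human counterpart is made by vessel-wall smooth muscle, stood at 1.73, 2.35 and 2.13 FPKM in controls, 3.15, 3.47 and 3.34 at 6 µg/L, 3.67, 3.6 and 3.53 at 30 µg/L and, at 50 µg/L, 3.74, 2.98 and 2.75. All 9 exposed libraries lay above all controls. It rose by 0.67 ± 0.16, 0.79 ± 0.16 and 0.60 ± 0.16 at 6, 30 and 50 µg/L (edgeR adjusted p = 0.016, 0.0032 and 0.011). Its exonic size is 2154 bases, below the median of all genes, and with the gene-length offset the changes were 0.71, 0.86 and 0.66. The call at 6 µg/L is lost without replicate 2 or replicate 3 of that dose, and the call at 50 µg/L without its replicate 1. With the compared groups alone both are lost (adjusted p = 0.13 and 0.078). The endothelial markers kdrl, cdh5, pecam1, tie1 and fli1a, summed, ran from 27.9 to 35.2 FPKM in controls, 33.5 to 36.1 at 6 µg/L, 34.8 to 38.9 at 30 µg/L and 45.5 to 45.8 at 50 µg/L, and their part in this result was not tested.

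The long gene col14a1a (chromosome 16, 14684916 to 15050842), needed in zebrafish for the epidermal basement membrane, rose by 0.66 ± 0.17 at 6 µg/L and by 0.49 ± 0.17 at 30 and at 50 µg/L (edgeR adjusted p = 0.025, 0.048 and 0.039). It stood at 1.57, 1.47 and 2.33 FPKM in controls, 2.36, 3.10 and 3.02 at 6 µg/L, 2.33, 2.59 and 2.62 at 30 µg/L and, at 50 µg/L, 2.32, 2.62 and 2.61, so control replicate 3 touched the exposed range. With the gene-length offset, the calls at 30 and 50 µg/L are lost (0.17 and 0.22, adjusted p = 0.23 and 0.11), and against control replicate 3 alone all 3 are. With a library left out they held in 2, 1 and 1 of 6 fits. The dense connective tissue genes col12a1a, col12a1b, col14a1b and col16a1 did not pass at any dose, with log2 fold changes from 0.02 for col12a1b at 50 µg/L to 0.49 for col12a1a at 30 µg/L. The axon guidance gene col19a1 (long row; chromosome 13, 38990939 to 39115963) did not pass against control, but fell between the doses. It stood at 1.02, 0.962 and 0.804 FPKM at 50 µg/L, against 1.44, 1.65 and 1.43 at 6 µg/L, a change of -0.70 ± 0.20 (edgeR adjusted p = 0.023) with no overlap. Its short row did not pass (-0.35 ± 0.33, adjusted p = 0.48). With the gene-length offset the long row is also called lower at 50 µg/L against control, at -0.46 (edgeR adjusted p = 0.019).

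**Figure D3:**
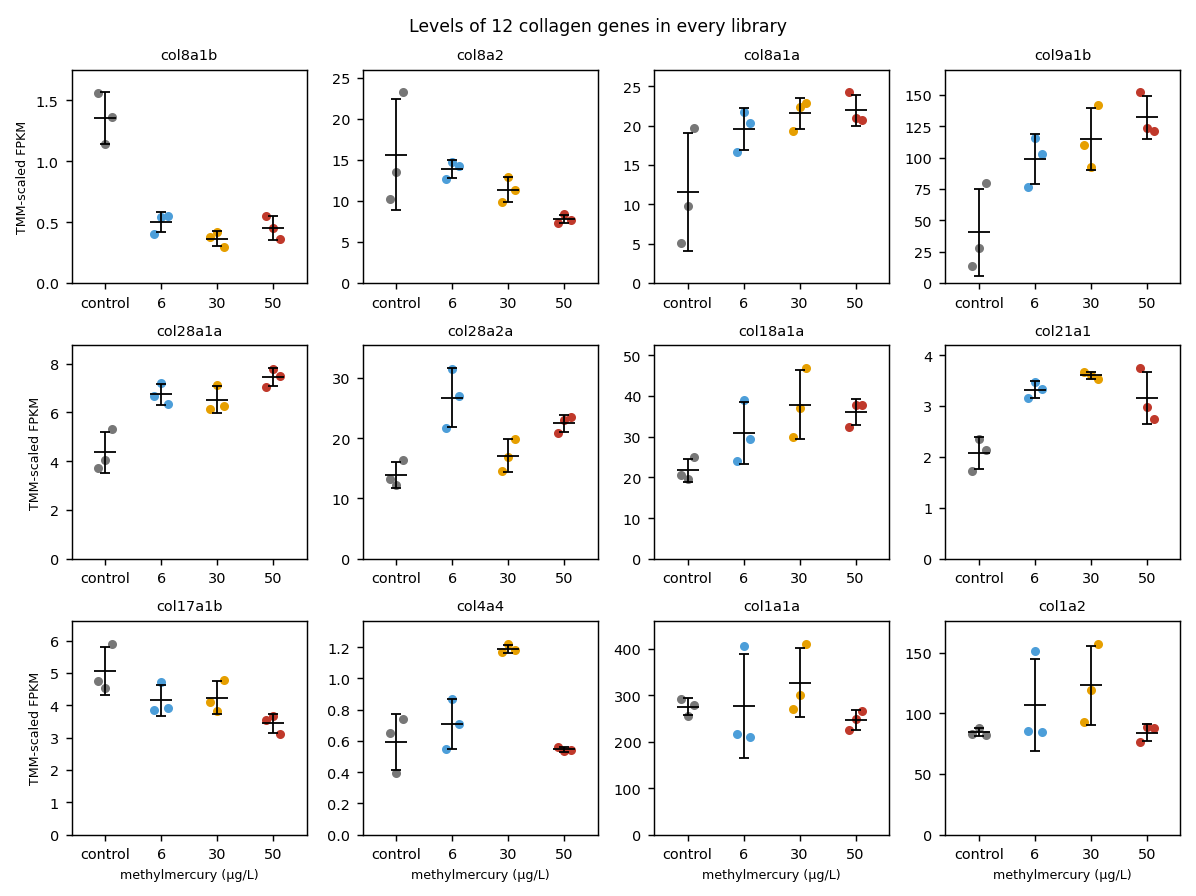
Each panel gives the TMM-scaled FPKM of a collagen gene in the 12 libraries by MeHg concentration, with every library as a point and the group mean ± SD (n = 3) as the bar. The gene col8a1b is lower in all exposed libraries than in all controls, col8a2 falls to between 7.33 and 8.34 FPKM at 50 µg/L, col4a4 stands apart at 30 µg/L, and col1a1a and col1a2 each have a single high library at 6 µg/L.

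Type VI makes beaded filaments around muscle and other cells, and its human genes are mutated in congenital muscle disease; type XXVIII is related to it through its von Willebrand A domains. Of 8 tested genes of both types, 2 rose at 6 µg/L, 1 at 30 µg/L and 2 at 50 µg/L, and all of these calls fell on type XXVIII. Of all tested genes 5.48%, 13.4% and 17.6% rose. With the gene-length offset 2, 1 and 2 were higher, against 5.83%, 13.9% and 18.8%, and 0, 2 and 3 lower, against 9.88%, 17.7% and 21.9%. The gene col28a1a (chromosome 19, 25476228 to 25512695) stood at 3.74, 4.05 and 5.31 FPKM in controls, 6.68, 7.21 and 6.35 at 6 µg/L, 6.15, 7.14 and 6.28 at 30 µg/L and, at 50 µg/L, 7.05, 7.77 and 7.51. All 9 exposed libraries lay above all controls. It rose by 0.62 ± 0.13, 0.58 ± 0.13 and 0.77 ± 0.13 (edgeR adjusted p = 0.0089, 0.0067 and 0.00078). Against control replicate 3 alone the rises were 0.36, 0.31 and 0.50, and the rise at 30 µg/L is then not called (adjusted p = 0.055). With the compared groups alone the rises at 6 and 30 µg/L are not called (adjusted p = 0.11 and 0.064).

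The related gene col28a2a (chromosome 9, 48297412 to 48371379) did not follow the order of the doses. It stood at 13.2, 12.2 and 16.3 FPKM in controls, 21.7, 31.4 and 27 at 6 µg/L, 14.5, 16.8 and 19.9 at 30 µg/L and, at 50 µg/L, 20.8, 23 and 23.5. The groups at 6 and 50 µg/L cleared all controls, while the group at 30 µg/L overlapped them. Changes were 0.94 ± 0.16 at 6 µg/L, 0.29 ± 0.16 at 30 µg/L and 0.69 ± 0.16 at 50 µg/L (edgeR adjusted p = 0.0025, 0.18 and 0.0048). The calls at 6 and 50 µg/L held under every alternative tried. Of the paralogues, col28a2b did not pass (0.73 ± 0.35 at 50 µg/L, edgeR adjusted p = 0.12), and col28a1b, under the level filter, averaged 0.141 FPKM in controls and 0.211, 0.135 and 0.302 FPKM at 6, 30 and 50 µg/L.

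Type VI itself did not pass at any dose. The chain gene col6a1 stood at 35.6, 35.9 and 33.4 FPKM at 50 µg/L, against 37.0, 42.2 and 46.5 in controls (-0.26 ± 0.11, edgeR adjusted p = 0.067). The gene col6a2, next to it on chromosome 11, stood at 19.3, 19.4 and 17.8 FPKM, against 19, 22.1 and 30.1 (-0.33 ± 0.14, adjusted p = 0.080). With the gene-length offset both are called lower at 50 µg/L, at -0.45 and -0.52 (adjusted p = 0.0016 and 0.0006). The long row of col6a3, at 14531 bases the longest tested collagen gene, was at 0.09 ± 0.16 (log2 fold change) without the offset. With the offset it is called lower, at -0.33 (edgeR adjusted p = 0.027). At 30 µg/L the offset also calls col6a1 and the long row of col6a3 lower, at -0.42 and -0.46 (adjusted p = 0.0036 and 0.0068). The short row of col6a3 (0.10 ± 0.25 at 50 µg/L) shares 6551 bases of the chromosome with the long row on the same strand. The split of reads between the rows is therefore uncertain. The gene col6a4a was at 0.29 ± 0.19 at 50 µg/L and was not called.

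Types VII and XVII hold the epidermis to the dermis. Type VII forms the anchoring fibrils under the epidermis, and type XVII spans the cell membrane at the hemidesmosome. The gene col7a1 (chromosome 6, 40184235 to 40312091) stood at 2.90, 2.3 and 3.00 FPKM in controls, 3.56, 5.77 and 3.70 at 6 µg/L, 3.75, 5.21 and 5.57 at 30 µg/L and, at 50 µg/L, 3.76, 4.14 and 4.51. No exposed library overlapped a control. It rose by 0.67 ± 0.20, 0.83 ± 0.20 and 0.60 ± 0.20 (edgeR adjusted p = 0.042, 0.0088 and 0.031), and with the gene-length offset no dose was called (0.30, 0.37 and 0.21, adjusted p = 0.31, 0.16 and 0.40). Against control replicate 3 alone the changes were 0.55, 0.71 and 0.47, and 0.72, 0.78 and 0.62 with the offset as well. The offset without that library gave 0.13, 0.20 and 0.04. With a library left out the calls held in 2, 6 and 3 of 6 fits. Its relative col7a1l rose at 30 µg/L by 0.53 ± 0.15 (edgeR adjusted p = 0.023), and is not called with the offset (0.21, adjusted p = 0.20). Against control replicate 3 alone the change of col7a1l there was 0.33, and 0.39 with the offset as well. The offset without that library gave 0.13. Both are long, at 10973 and 7679 bases.

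The hemidesmosome gene col17a1a stood at 72.0, 79.6 and 77.5 FPKM at 50 µg/L, against 72.6, 73.4 and 70.5 in controls, and did not pass at any dose. Its paralogue col17a1b (chromosome 13, 24750078 to 24779692) stood at 4.74, 4.52 and 5.89 FPKM in controls, 3.85, 4.71 and 3.91 at 6 µg/L, 4.11, 3.81 and 4.79 at 30 µg/L and, at 50 µg/L, 3.54, 3.68 and 3.11. At 50 µg/L all libraries lay below all controls. It fell there (-0.55 ± 0.14, edgeR adjusted p = 0.0086), and the call held under every alternative tried. With the gene-length offset col17a1b is also called lower at 6 and 30 µg/L, at -0.43 and -0.45 (edgeR adjusted p = 0.022 and 0.0091). The basal epidermis markers tp63, krtt1c19e, cldni, lamb4, itgb4 and itga6b, summed, ran from 1590 to 3150 FPKM in controls, where replicate 3 was the lowest, 1180 to 1380 at 6 µg/L, below every control, 1720 to 1890 at 30 µg/L and 1710 to 1760 at 50 µg/L. Of the 6, 0 rose and 1 fell at 6 µg/L, 2 rose and 0 fell at 30 µg/L, and 2 rose and 1 fell at 50 µg/L. Among all tested genes, 5.48%, 13.4% and 17.6% rose and 8.88%, 17.3% and 21.9% fell at these doses. The part of these markers in these results was not tested.

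The multiplexins XV and XVIII are basement membrane proteoglycans, and the end of type XVIII is cut off as endostatin, an inhibitor of vessel growth. The gene col18a1a (chromosome 9, 41821613 to 41979505) stood at 20.7, 19.6 and 25 FPKM in controls, 24, 39.1 and 29.5 at 6 µg/L, 29.9, 37.0 and 46.8 at 30 µg/L and, at 50 µg/L, 32.3, 37.9 and 37.9. The groups at 30 and 50 µg/L cleared all controls. It rose by 0.80 ± 0.19 at 30 µg/L and by 0.73 ± 0.19 at 50 µg/L (edgeR adjusted p = 0.0085 and 0.010). The rises held with the gene-length offset (0.53 and 0.49, adjusted p = 0.021 and 0.023), but were not called against control replicate 3 alone (0.62 and 0.54). With the offset and that library as the only control the changes were 0.66 and 0.62. The offset without that library gave 0.47 and 0.44. Its paralogue col18a1b stood at 2.23, 2.5 and 2.26 FPKM at 50 µg/L, against 2.27, 2.77 and 2.99 in controls (-0.21 ± 0.15, edgeR adjusted p = 0.29), and col15a1b was not called (0.27 ± 0.15, adjusted p = 0.18).

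Collagens are built from set combinations of chains, so the ratio of chain or paralogue levels within a library is a further view that a shift common to both genes leaves as it is. The 17 ratios were chosen with the levels known and are given without a test. For the head-to-head pair the libraries of a group lay close together. The ratio of col4a5 to col4a6 was 2.66, 2.68 and 2.70 in controls, 2.46, 2.49 and 2.44 at 6 µg/L, 2.19, 2.28 and 2.21 at 30 µg/L and, at 50 µg/L, 2.31, 2.32 and 2.32. No exposed library overlapped a control, and control replicate 3 did not stand apart, although both genes are high in it. The group means ± SD were 2.32 ± 0.00415 at 50 µg/L and 2.68 ± 0.0166 in controls (n = 3 each). The genes differ in exonic size, 6455 bases for col4a5 and 8455 for col4a6. With the gene-length offset their log2 fold changes at 50 µg/L were 0.07 and 0.21, against 0.29 and 0.50 without it. None of the ratios carries that offset.

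Other ratios differed more between groups. The ratio of col8a1a to col8a2 was 0.494, 0.727 and 0.850 in controls, 1.31, 1.47 and 1.42 at 6 µg/L, 1.95, 1.74 and 2.03 at 30 µg/L and, at 50 µg/L, 3.30, 2.5 and 2.70. Here the 4 groups did not overlap and lay in the order of the doses. The ratio of col18a1a to col18a1b averaged 8.18 ± 1.03 in controls, 10.7 ± 1.48 at 6 µg/L, 13.9 ± 1.61 at 30 µg/L and 15.5 ± 1.16 at 50 µg/L (SD, n = 3 each). The exonic size of col18a1a is 6566 bases and that of col18a1b 3571. For col11a1a to col11a1b the means were 2.90, 4.16, 4.05 and 5.77, and every exposed library was above every control. The ratio of col11a1a to its partner chain col11a2 did not separate the groups, with means of 3.34, 3.53, 3.74 and 3.38. Its controls, from 2.42 to 4.30, spanned every exposed library. For col9a1b to col9a2 the libraries ran from 1.21 to 2.09 in the exposed groups and from 0.294 to 0.927 in controls, so the type IX ratio separated control replicate 3 from all exposed libraries although the level of col9a1b did not. The ratio of col1a1b to col1a1a was highest at 6 µg/L, with means of 0.350, 0.469, 0.428 and 0.380 from 0 to 50 µg/L. For col4a4 to col4a3 the libraries at 30 µg/L ran from 1.11 to 1.26 and the other 9 from 0.553 to 0.802.

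**Figure D4:**
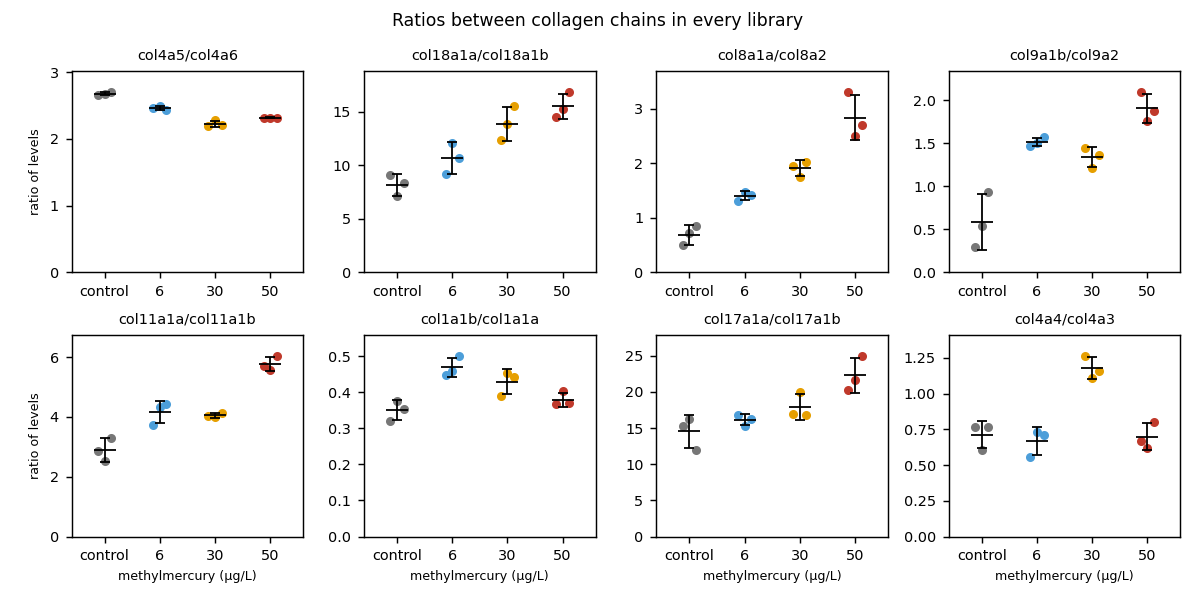
Each panel plots the ratio of 2 collagen genes' TMM-scaled FPKM in each library by MeHg concentration, with points for libraries and bars for the mean ± SD (n = 3). The ratio of col8a1a to col8a2 has means of 0.690 in controls and 1.40, 1.91 and 2.83 at 6, 30 and 50 µg/L, and the ratio of col4a4 to col4a3 stands apart at 30 µg/L only, at 1.18.

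Within groups, many collagen genes varied together. At 6 µg/L, replicate 2 was the highest of the 3 libraries in 44 of 48 tested collagen genes and in 13 of 13 fibril-forming ones, against 31.0% of all tested genes. There col1a1a was 1.9-fold, col1a1b 1.85-fold and col1a2 1.78-fold the mean of the other 2 libraries. At 30 µg/L, replicate 3 was the highest in 35 of 48, against 29.9% of all tested genes, with col1a1a 1.44-fold the mean of the others. At 50 µg/L, replicate 2 was the highest in 31 of 48, against 32.3% of all tested genes, and in 10 of 13 fibril-forming ones. The spread there was smaller, with col1a1a between 0.871-fold and 1.13-fold. In controls, replicate 3 was the highest in 38 of 48, against 43.4% of all tested genes, and in 7 of 13 fibril-forming ones. That share covers genes of all lengths, and this split of the controls was no wider in collagen genes than in genes of like length. The median deviations in control replicates 1, 2 and 3 were -0.36, -0.29 and 0.06 for collagen genes and -0.43, -0.34 and 0.14 for genes of the same length eighths. The shares in the exposed groups also cover genes of all lengths. In 6 µg/L replicate 2, 30 µg/L replicate 3 and 50 µg/L replicate 2 the collagen medians were 0.39, 0.31 and 0.09. Genes of the same length eighths had 0.11, 0.14 and 0.11 there, also the highest of each group. Collagen genes together took 0.603% to 1.17% of all counts, the most in 6 µg/L replicate 2 and the next, 1.09%, in 30 µg/L replicate 3. Among partner genes, 22 of 26 of the basement membrane and 12 of 15 on the receptor list were also highest in 6 µg/L replicate 2. The counts there were 3 of 21 for hydroxylation and folding, 4 of 16 for export, 6 of 17 for processing and cross-linking, and 5 of 28 for fibril partners. Without that library the median log2 fold change of the collagen genes at 6 µg/L was 0.05, and 2 genes rose. The share of all tested genes that rose in that fit is not given here.

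**Figure D5:**
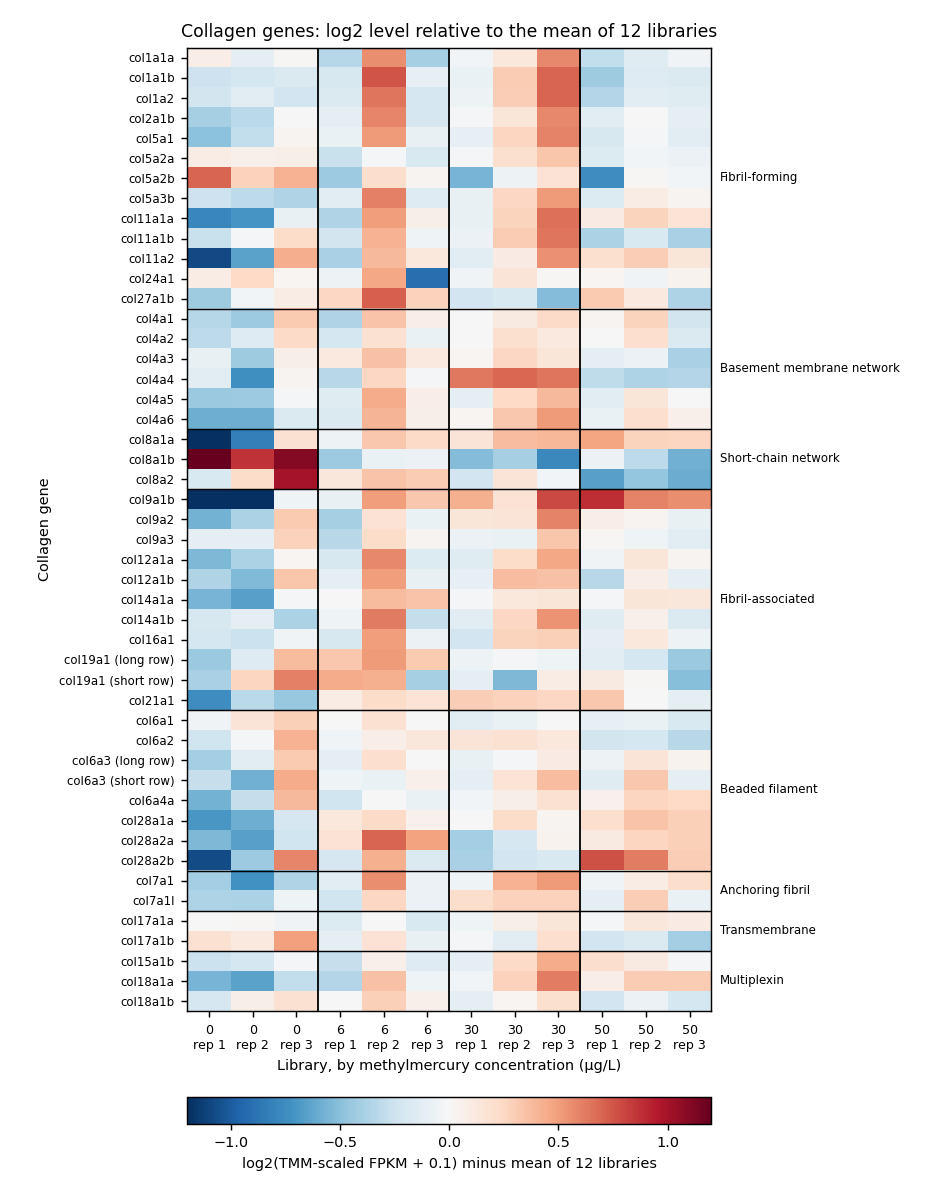
Rows are the 48 tested collagen genes by structural class and columns the 12 libraries by MeHg concentration (0 is the control); colour gives log2(TMM-scaled FPKM + 0.1) minus the gene's mean over the libraries, and values beyond the scale take its end colours. The second library at 6 µg/L and the third at 30 µg/L are red through most of the fibril-forming block, and col8a1b is blue or pale in the exposed libraries and dark red in the controls.

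Between the doses, 50 against 6 µg/L, no control library enters the contrast itself, although all libraries share the estimate of spread. Of the 48 collagen genes 0 rose and 2 fell, col8a2 and the long row of col19a1, where 11.1% of all tested genes rose and 12.9% fell. At an unadjusted p under 0.05, 0 were higher and 4 lower, and DESeq2 also called 0 higher and 2 lower. A fit on the 6 compared libraries alone called 4 higher and 8 lower. Shares of all tested genes by unadjusted p, by DESeq2 and in that smaller fit are not given here. By groups that did not overlap, 2 were higher and 7 lower, against 26% and 28% of all tested genes. With the gene-length offset 0 rose and 3 fell, against 13.6% in each direction. The median change was -0.14, against 0.03 for genes of the same length eighths, and it turns to 0.08 without 6 µg/L replicate 2. Without 6 µg/L replicate 2, 3 or 50 µg/L replicate 2 or 3 neither gene is called.

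The enzymes and partners that make, export and bind collagen were read from lists, each with its count of rises and falls. Medians over a list at 50 µg/L against control stand beside -0.04 for all tested genes. The counts stand beside the shares of all tested genes that rose and fell, which were 5.48% and 8.88% at the lowest dose, 13.4% and 17.3% at the middle dose and 17.6% and 21.9% at the highest. Of 21 tested enzymes of hydroxylation and folding, 1 rose at 6 µg/L, 3 rose at 30 µg/L, and 2 rose and 3 fell at 50 µg/L (17.6% and 21.9% of all tested genes), with a median of -0.08 there. Of the prolyl hydroxylases, whose work lets collagen helices hold at body temperature, 2 subunit genes fell at 50 µg/L and another, p4ha2, rose at 6 and 30 µg/L. The gene p4ha2 stood at 17.4, 16.1 and 17.4 FPKM at 6 µg/L, against 10.6, 13.4 and 13.1 in controls (0.45 ± 0.11, edgeR adjusted p = 0.017), and its change at 30 µg/L was 0.34 (adjusted p = 0.034). The gene p4ha1a stood at 12.7, 13.8 and 10.6 FPKM at 50 µg/L, against 24.3, 26.9 and 18.5 in controls (-0.91 ± 0.15, edgeR adjusted p = 0.00051). Its paralogue p4ha1b stood at 6.63, 4.80 and 5.33 FPKM, against 12.9, 12.9 and 6.23 (-0.94 ± 0.23, adjusted p = 0.0063), with control replicate 3 inside the range at 50 µg/L. Both also fell against 6 µg/L (-0.83 and -1.14). The lysyl hydroxylase gene plod1a rose at 30 µg/L, with 32.7, 31.9 and 32.5 FPKM, against 19.7, 23.4 and 19.9 in controls (0.63 ± 0.10, adjusted p = 0.00052). The list also holds pdia3, a general chaperone, which rose at 30 and 50 µg/L (0.38 at both).

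Collagen leaves the endoplasmic reticulum in enlarged carriers coated by the COPII proteins. Of 16 genes tested for this step, 2 rose and 2 fell at 6 µg/L, 8 rose and 0 fell at 30 µg/L, and 7 rose and 1 fell at 50 µg/L (17.6% and 21.9% of all tested genes), with a median of 0.38 there. The coat gene sec24a stood at 13.6, 13.9 and 14.6 FPKM at 50 µg/L, against 6.82, 6.72 and 6.39 in controls (1.08 ± 0.20, edgeR adjusted p = 0.0012). The coat gene sec23a, which is mutated in the zebrafish crusher line with cartilage defects, stood at 22.9, 20.7 and 22.3 FPKM, against 11.8, 14 and 15.8 (0.66 ± 0.11, adjusted p = 0.00064). The tethering factor trappc2 fell, to 6.28, 5.34 and 4.90 FPKM, against 9.29, 9.86 and 7.82 (-0.71 ± 0.13, adjusted p = 0.0013). These coat proteins carry most secreted proteins, not collagen alone.

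Of 17 genes of propeptide processing and cross-linking, 2 fell at 6 µg/L, 3 rose and 3 fell at 30 µg/L, and 3 rose and 3 fell at 50 µg/L (17.6% and 21.9% of all tested genes), with a median of -0.17 there. The enhancer of procollagen cleavage pcolceb stood at 0.569, 1.11 and 0.629 FPKM at 50 µg/L, against 2.39, 3.39 and 6.95 in controls (-2.48 ± 0.38, edgeR adjusted p = 0.00034). Its relative pcolce2a went the other way, at 1.09, 1.05 and 1.28 FPKM, against 0.453, 0.729 and 0.499 (1.02 ± 0.25, adjusted p = 0.0067). The cross-linking enzyme gene loxa stood at 1.82, 1.86 and 1.96 FPKM, against 3.89, 3.73 and 3.43 (-0.97 ± 0.20, adjusted p = 0.0025).

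Of 28 fibril partners, 1 rose and 7 fell at 6 µg/L, 5 rose and 7 fell at 30 µg/L, and 6 rose and 13 fell at 50 µg/L (17.6% and 21.9% of all tested genes), with a median of -0.28 there. Tenascin X gene tnxba, which spaces fibrils, stood at 3.81, 4.10 and 3.76 FPKM at 50 µg/L, against 10.4, 8.87 and 15.9 in controls (-1.59 ± 0.18, edgeR adjusted p = 2.9e-05). The fibronectin gene fn1b stood at 63.5, 76.5 and 77.7 FPKM, against 20.6, 18.9 and 32.9 (1.59 ± 0.19, adjusted p = 5.7e-05). The fibril-binding proteoglycan gene fmoda stood at 59.0, 61.3 and 61.3 FPKM, against 103, 99.2 and 87.5 (-0.67 ± 0.09, adjusted p = 0.00016). The groups did not overlap for any of these genes.

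Of 26 basement membrane partners, 0 rose and 1 fell at 6 µg/L, 11 rose and 1 fell at 30 µg/L, and 8 rose and 0 fell at 50 µg/L (17.6% and 21.9% of all tested genes), with a median of 0.49 there. With the gene-length offset that median was 0.25. Control replicate 3 was the highest control in 23 of the 26 genes, against 43.4% of all tested genes. The laminin gene lama1 stood at 1.92, 1.91 and 1.56 FPKM at 50 µg/L, against 0.452, 0.487 and 0.975 in controls (1.47 ± 0.32, edgeR adjusted p = 0.0031). Of 15 genes on the receptor list, 1 rose and 1 fell at 6 µg/L, 4 rose and 1 fell at 30 µg/L, and 5 rose and 2 fell at 50 µg/L (17.6% and 21.9% of all tested genes), with a median of 0.25 there. On this list, uggt1, a glycoprotein folding sensor, and itga2b, a platelet integrin for fibrinogen, are no collagen receptors. The rise at 6 µg/L was that of uggt1 (0.53, edgeR adjusted p = 0.019), which was also among the falls at 50 against 6 µg/L (-0.55, adjusted p = 0.0086). The collagen-sensing kinase genes split: ddr2b stood at 2.52, 2.18 and 2.21 FPKM at 50 µg/L, against 4.94, 4.60 and 6.69 in controls (-1.23 ± 0.16, edgeR adjusted p = 8.6e-05), and ddr1 at 8.25, 8.17 and 8.45, against 4.66, 5.13 and 5.58 (0.69 ± 0.10, adjusted p = 0.00024). At 50 against 6 µg/L, hydroxylation and folding had 1 rise and 2 falls, export 1 and 1, processing and cross-linking 2 and 3, fibril partners 3 and 6, basement membrane partners 0 and 0, and receptors 4 and 3, where 11.1% of all tested genes rose and 12.9% fell.

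The gene-length offset moved several of these counts. At 50 µg/L against control, hydroxylation and folding then had 1 rise and 2 falls, export 7 and 2, processing and cross-linking 4 and 6, fibril partners 5 and 14, basement membrane partners 10 and 2, and receptors 4 and 5, where 18.8% of all tested genes rose and 21.9% fell. The receptors had 0 rises and 4 falls at 6 µg/L, where 5.83% of all tested genes rose and 9.88% fell. At 30 µg/L they had 2 and 3, against 13.9% and 17.7%. Falls outnumbered rises among all tested genes too at each dose. The receptor medians with the offset were -0.13, 0.14 and 0.21 at 6, 30 and 50 µg/L. Changes of long partner genes moved too. At 50 µg/L against control the offset gave 0.39 for ddr1, 1.22 for lama1, 1.30 for fn1b and 0.49 for sec23a, each smaller than without it. The falls of tnxba and p4ha1b were larger, at -1.785 and -1.16. At 50 against 6 µg/L, export and basement membrane partners each had 5 rises and 1 fall with the offset, hydroxylation and folding 2 and 2, processing and cross-linking 2 and 4, fibril partners 3 and 4, and receptors 4 and 4, where 13.6% of all tested genes rose and 13.6% fell.

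Markers of some tissues that make collagen moved as well, and their part in the collagen results was not tested. The lists are not separate from those of the partners. The markers epyc, lum, ogna and prelp are also fibril partners, and lamb4 is also a basement membrane partner. The 9 cartilage markers, summed, ran from 596 to 688 FPKM in controls, 458 to 477 at 6 µg/L, 426 to 433 at 30 µg/L and 375 to 391 at 50 µg/L, and 4 of 9 fell at 50 µg/L while 0 rose, where 21.9% of all tested genes fell and 17.6% rose. The 9 fibroblast and tendon markers ran from 116 to 151 FPKM in controls, 103 to 110 at 6 µg/L, 104 to 106 at 30 µg/L and 91.7 to 95.9 at 50 µg/L, and of 8 tested 5 fell and 0 rose at 50 µg/L. The 7 notochord markers ran from 225 to 262 FPKM in controls, 228 to 249 at 6 µg/L, 221 to 238 at 30 µg/L and 220 to 226 at 50 µg/L, so each dose overlapped the controls, and 2 rose and 1 fell at 50 µg/L. Of the 8 osteoblast markers 6 were tested, and 2 fell and 0 rose at 50 µg/L. None of these markers was at 0 in every library.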

How the data were processed

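The authors deposited a table of 32057 genes that gives, for each of 12 libraries, raw counts beside FPKM. Per the submitters' processing notes, the tools HTSeq 0.6.1, HISAT2 2.0.1, cutadapt 1.9.1, FastQC 0.10.1 and DESeq2 and the build GRCz11 are named. Their roles, the annotation and any use of strand were not given in the sources used here. Deposited counts were whole reads per gene, not normalized. The deposited FPKM values equal the count scaled by exonic kilobases and library total, within 0.006 for 100% of values. Symbols and coordinates are those of the table.

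Counts were tested with edgeR 4.0.16 in R 4.3.3 (TMM scaling, quasi-likelihood F test, two-sided) over the 19821 genes whose mean FPKM reached 0.5, fitting all 12 libraries as 4 groups with no covariate. P-values were Benjamini-Hochberg adjusted over all genes tested in a comparison. The SE is the log2 fold change divided by the square root of F and is approximate. Levels are FPKM on TMM-scaled library sizes. Longer genes and deeper libraries have less counting error; library totals differed by less than 1.5 times.

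The gene-length offset is a lowess curve (span 0.3) per library of the log2 CPM deviation against log2 exonic size, with the 8 length eighths used for description. The script was tested on simulated data for 50 µg/L against control. The main fit recovered 59 of 100 2-fold and 93 of 100 4-fold changes, so a gene that did not pass may still have changed. Only these genes changed among 19821, giving 163 calls, where 3492 genes rose and 4331 fell in the data. The adjusted p threshold was therefore stricter, and genes of any tested level were drawn, so these rates are not those of the collagen genes. With a length trend added to some controls the main fit recovered 54 and 91, and 16 of 161 calls were false. With the offset 10 of 153 were false. The planned test allowed for FPKM only, and as counts were present the count test was the main one. Alternatives were other scalings, filters and tools (limma 3.58.1, DESeq2 1.42.0), a replicate block, fits on fewer libraries and the length offset. Combinations of the offset with control replicate 3 left out or alone were added after seeing the data.

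The members, gene lists and tests were chosen with earlier results of these data known. Named genes were a set list of major chains, the 6 largest rises and falls among called members per comparison, the member with the smallest p per collagen type, and up to 4 genes with the smallest p per other list. Of these, only part are printed. No sequences are shown.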

Additional observations from a re-analysis of the deposited data

How the results depend on the processing

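Control replicate 3, the gene-length offset and a fit on the compared groups alone each move counts of collagen genes by over 1.5 times. Counts are given as genes higher, then lower, beside main counts of 5 and 1 at 6 µg/L, 10 and 1 at 30 µg/L, 10 and 4 at 50 µg/L, and 0 and 2 at 50 against 6 µg/L. Shares of all tested genes are given above for the main fit and the plain gene-length offset only. The other counts here have no such share beside them. Leaving out each library in turn gave 2 to 25 and 1 to 2 at 6 µg/L, 6 to 31 and 1 to 2 at 30 µg/L, 5 to 21 and 3 to 5 at 50 µg/L, and 0 and 0 to 1 at 50 against 6 µg/L, the highest rises being without control replicate 3. Against control replicate 3 alone, where its spread is assumed to be that of the other groups, 3 were higher and 5 lower at 6 µg/L, 3 and 7 at 30 µg/L, and 4 higher at 50 µg/L. With the gene-length offset, 3, 5 and 10 were lower at 6, 30 and 50 µg/L and 6 higher at 50 µg/L. The offset without control replicate 3 gave 9 and 7 at 6 µg/L, 7 lower at 30 µg/L and 16 lower at 50 µg/L, and the offset with that library as the only control gave 5, 6 and 7 lower. The compared groups alone gave 1, 5 and 4 higher at the 3 doses, and 4 higher and 8 lower at 50 against 6 µg/L. Library totals gave a median log2 fold change of the collagen genes of -0.26, in place of -0.14, at 50 against 6 µg/L. They gave 6 and 5 higher at 30 and 50 µg/L, and limma with either pseudocount gave 6 higher at 50 µg/L. With no filter 2 were lower at 6 µg/L, and with a mean FPKM of at least 2, which drops col8a1b, 0, 0, 2 and 1 were lower in the 4 comparisons. Replicate numbers did not pair the samples (correlations of same-numbered samples from -0.256 to 0.35), and the replicate block gave 7 and 1, 14 and 1, 10 and 4, and 0 and 2.

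Among the genes chosen by the naming rule, calls were kept in 492 alternatives and lost in 136. Of the values of genes with no call, 121 passed the threshold in the same direction, and 9 turned round and passed it. The long row of col6a3 was at -0.43, -0.57 and -0.45 at 6, 30 and 50 µg/L with the offset and no control replicate 3, and at -0.46 and -0.33 at 30 and 50 µg/L with the offset. At 30 µg/L col6a2 was at -0.25 against control replicate 3 alone. With the offset and no control replicate 3, col17a1a was at -0.23 and -0.20 at 30 and 50 µg/L and col5a1 at -0.30 at 50 µg/L. Other collagen genes outside that rule did so too: col6a4a was at 0.31 at 6 µg/L without control replicate 3 and at -0.24 at 30 µg/L with the offset and that library as the only control. With the offset and no control replicate 3, col12a1b was at -0.31 at 50 µg/L and col5a2a at -0.20 at 30 µg/L. The cause was not tested. The gene col8a1b rests on 26 to 122 counts per library.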

Other observations

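Further chain ratios are given without a test. The ratio of the type I alpha1 genes, col1a1a and col1a1b, to col1a2 was 3.68, 3.92 and 3.72 in libraries at 6 µg/L and 4.04, 3.94 and 4.18 in those at 50 µg/L, against 4.63, 4.01 and 4.58 in controls. The ratio of col5a1 to col5a2a ran from 0.530 to 0.717 at 6 µg/L, 0.468 to 0.594 at 30 µg/L and 0.477 to 0.501 at 50 µg/L, against 0.332 to 0.486 in controls. For col9a3 to col9a2 the exposed libraries ran from 1.18 to 1.54 and the controls from 1.40 to 1.97. For col6a1 to col6a2 the libraries at 30 µg/L were the lowest group, with a mean of 1.45, against 1.80 in controls. The ratio of col17a1a to col17a1b averaged 22.3 ± 2.37 at 50 µg/L and 14.5 ± 2.25 in controls (SD, n = 3 each), with no overlap. For col4a1 to col4a2 and for col28a2a to col28a1a each dose overlapped the controls. For col7a1 to col7a1l only the libraries at 6 µg/L, from 0.809 to 1.01, cleared the controls, which ran from 0.628 to 0.787. For col6a1 to the long row of col6a3 only those at 30 µg/L, from 3.93 to 4.07, lay below all controls, which ran from 4.11 to 5.44.

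Several collagen genes also neighbour each other tail to tail. The long row of col19a1 ends 3496 bases from the end of col9a1b on chromosome 13, and at 50 against 6 µg/L their log2 fold changes were -0.70 and 0.43. The genes col9a2 and col16a1 lie 6203 bases apart on chromosome 19, with changes of 0.09 and -0.13.

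The 8 fin fold markers, summed, ran from 330 to 344 FPKM at 50 µg/L and 360 to 440 FPKM in controls, although of 7 tested 3 rose and 1 fell at 50 µg/L, where 17.6% of all tested genes rose and 21.9% fell. The 5 muscle markers ran from 16900 to 20200 FPKM at 50 µg/L and 19300 to 21000 FPKM in controls, with 1 rise and 3 falls. At 6 µg/L the muscle markers ran from 13200 to 16300 FPKM, below all controls. All fin fold markers except msxb are also on the partner lists above.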
